A study of Mus musculus with 12 samples.

Results

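Mouse liver sinusoidal endothelial cells (LSECs) lacking the scavenger receptor Stab1 were compared with LSECs lacking its relative Stab2, across all genes on the arrays. The members were all 6 arrays that the labels title Stab1KO or Stab2KO, 3 of each, out of 12 arrays in the study. Each array held RNA of a separate pool of 3 mice aged 3 to 4 months, of strain C57BL/6J. LSECs were purified with CD146 magnetic beads, their purity was assessed by flow cytometry, and RNA was extracted at once. The other 6 arrays held LSECs of wild-type mice (WT, 3 arrays) and of mice lacking both genes (DKO, 3 arrays), prepared in the same way, and their values are given beside the comparison. The labels do not give the knockout alleles, whether the genes were lost in all cells, or whether the lines were littermates. A pool of mice shows the mean of its animals, and p-values here measure the spread between such pools.

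Stabilin-1 and stabilin-2 are large transmembrane receptors of the same family, built of repeated fasciclin and EGF-like domains. Both sit on sinusoidal endothelium, cycle between the surface and endosomes, and carry modified lipoproteins, matrix fragments and other waste molecules from the blood towards the lysosome. Their ligands overlap in part: stabilin-2 is the main endocytic receptor for hyaluronan in the liver, while stabilin-1 binds SPARC, among others. Setting one loss against the other asks where the transcriptomes of the 2 single knockouts differ, whichever of them departs from WT.

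The values were log2 expression per gene and array, between 2.94 and 13.9, with a median of 5.11 on an array. Pearson correlations over all genes were 0.9919 to 0.994 within Stab1KO, 0.9903 to 0.9957 within Stab2KO and 0.989 to 0.9925 between them. DKO replicate 3 stood apart, at 0.9555 to 0.9682 with the other arrays and a mean of 11.84 over 15 neutrophil genes, against 5.35 to 6.84 on the other 11 arrays. It is in neither single knockout, but it enters the spread that the model estimates over all 4 groups. The 24 measured LSEC identity genes other than the stabilins themselves, such as Lyve1, Clec4g and Fcgr2b, gave no call between the knockouts. With the stabilins, the list's mean was 11.96 to 12.001 on the Stab1KO arrays and 11.93 to 12.02 on the Stab2KO arrays.

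The single knockouts differed in few genes. In the limma fit with Benjamini-Hochberg adjustment over 24011 genes, 26 genes passed an adjusted p of 0.05, which is 0.108% of those tested. Of these, 14 were higher in Stab1KO (0.0583%) and 12 were lower (0.05%). The median difference over all genes was -0.0007 on the log2 scale, with a median standard error (SE) of 0.12, and 89 genes differed by more than 1 log2. At an unadjusted p of 0.05, 1698 genes (7.07%) passed, 721 higher in Stab1KO (3%) and 977 lower (4.07%). The 3 Stab1KO arrays did not overlap the 3 Stab2KO arrays in 12.6% of all genes (6.04% higher in Stab1KO, 6.61% lower), and in each of the 26. Of all genes, 49.8% had a difference above 0 and 50.2% below. Single arrays weighed on the count: it was 43 without DKO replicate 3, 12 without Stab2KO replicate 2, 13 without Stab1KO replicate 1 and 17 without Stab2KO replicate 1. Stab1, Stab2, Nt5dc2, Nt5dc3, Msh5, Lrmda, C2, H2-T23, H2-Q7, Mfsd13a and Ecm2 passed whichever of the 12 arrays was left out, and the other 15 genes lost the call without at least 1 array.

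**Figure D1:**
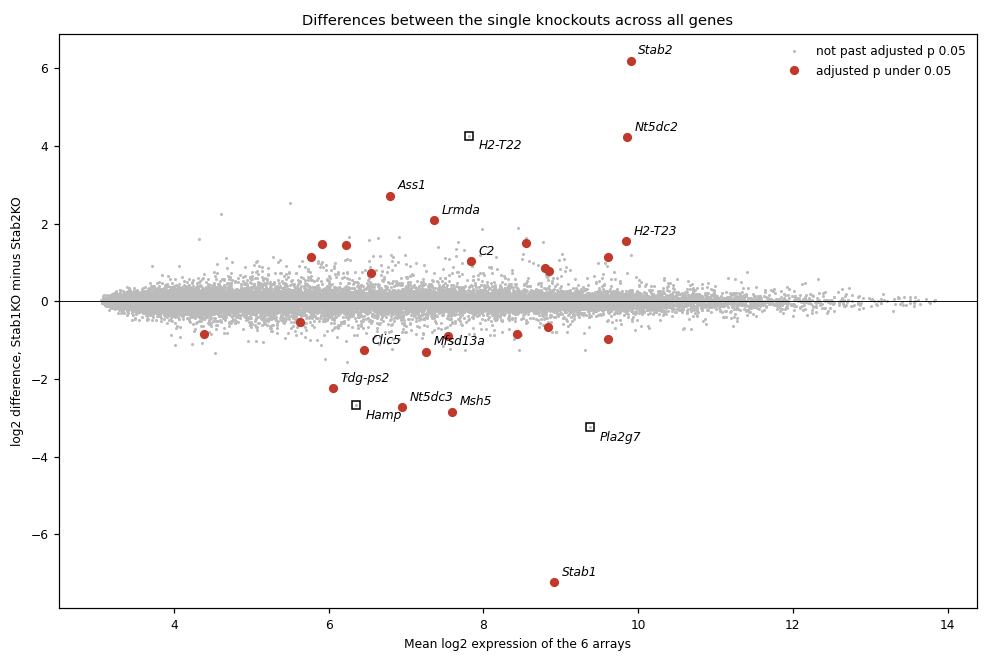
The log2 difference between the single knockouts (Stab1KO minus Stab2KO, vertical axis) against the mean log2 expression of the 6 arrays (horizontal axis), 1 point a gene. Red points are the 26 genes past an adjusted p of 0.05. Open squares mark Pla2g7, H2-T22 and Hamp, which lie far from 0 without passing. Stab1, Stab2 and Nt5dc2 lie farthest from 0 among the red points.

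The targeted genes followed the labels. Stab1 was at 5.30, 5.45 and 5.16 in the 3 Stab1KO arrays and at 12.48, 12.52 and 12.59 in the Stab2KO arrays. It was lower by 7.22 log2 (SE 0.12, limma adjusted p = 1.3e-10), about 150-fold, and DKO had the same low level (5.23 ± 0.23, SD, n = 3). Stab2 was at 13, 12.99 and 13.02 in Stab1KO and at 7.40, 6.76 and 6.26 in Stab2KO. The difference was 6.20 log2 (SE 0.44, limma adjusted p = 0.00019), about 73.4-fold. Each receptor was near its WT level where the other was missing: Stab1 in Stab2KO differed from WT by -0.01 log2 and Stab2 in Stab1KO by -0.04 log2. The exact permutation p for each gene was 0.1, two-sided, the smallest that 3 arrays against 3 allow.

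The gene beside each stabilin also passed the test. Nt5dc2 and Nt5dc3 encode members of the 5'-nucleotidase domain-containing family. Each lies tail to tail with a stabilin gene: Nt5dc2 with Stab1 on chromosome 14, where their annotated ends meet or overlap (0 kb between them), and Nt5dc3 with Stab2 on chromosome 10, with 2.805 kb between them. The promoter windows of these 4 genes are shown because the level of each Nt5dc gene was high where that of its stabilin was low. They run from 250 bases before to 50 bases after the start in the RefSeq annotation of GRCm38.p6, 5′ to 3′ on the strand of the gene, with CG dinucleotides in capitals.
Stab1, chr14:31168592-31168891, minus strand: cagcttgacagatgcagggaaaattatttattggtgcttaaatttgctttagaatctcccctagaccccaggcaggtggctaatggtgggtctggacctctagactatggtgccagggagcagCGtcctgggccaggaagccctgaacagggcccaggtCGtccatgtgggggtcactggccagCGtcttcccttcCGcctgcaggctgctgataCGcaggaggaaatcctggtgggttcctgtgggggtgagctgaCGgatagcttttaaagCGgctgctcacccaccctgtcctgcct
Nt5dc2, chr14:31130839-31131138, plus strand: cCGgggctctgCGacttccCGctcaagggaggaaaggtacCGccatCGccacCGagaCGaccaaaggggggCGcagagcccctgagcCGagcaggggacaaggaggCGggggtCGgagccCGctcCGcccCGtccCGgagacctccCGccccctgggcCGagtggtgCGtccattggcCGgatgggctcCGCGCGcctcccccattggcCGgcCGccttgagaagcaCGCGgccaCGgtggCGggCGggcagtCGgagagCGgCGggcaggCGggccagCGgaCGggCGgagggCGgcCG
Stab2, chr10:87007893-87008192, minus strand: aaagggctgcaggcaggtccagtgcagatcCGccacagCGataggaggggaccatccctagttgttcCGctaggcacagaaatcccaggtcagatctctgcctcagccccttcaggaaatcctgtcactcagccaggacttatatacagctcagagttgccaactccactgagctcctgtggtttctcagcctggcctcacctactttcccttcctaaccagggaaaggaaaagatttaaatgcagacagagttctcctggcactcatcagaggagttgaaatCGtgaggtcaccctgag
Nt5dc3, chr10:86778755-86779054, plus strand: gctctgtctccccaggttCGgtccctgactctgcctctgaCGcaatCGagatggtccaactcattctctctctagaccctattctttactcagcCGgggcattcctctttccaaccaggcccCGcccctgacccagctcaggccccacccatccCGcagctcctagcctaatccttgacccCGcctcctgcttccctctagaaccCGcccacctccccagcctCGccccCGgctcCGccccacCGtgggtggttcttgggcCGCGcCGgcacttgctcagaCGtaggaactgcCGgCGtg

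The windows differ in base composition within each pair. The Nt5dc2 window holds 38 CG dinucleotides and the Nt5dc3 window 18, against 7 for Stab1 and 4 for Stab2. The median over the 32851 promoter windows in the table is 7. Motifs were searched on both strands. The letters CCGCCC occur 5 times in the Nt5dc2 window and 3 times in the Nt5dc3 window, and in neither stabilin window. Of all windows, 35.7% hold them. TATAA has 1 match among the 4 windows, in that of Stab2 and on the strand opposite to the gene, where the printed sequence reads TTATA. On either strand, 24.9% of all windows hold it. Nt5dc2 has a second annotated start, which is not shown, and the arrays do not tell the starts apart.

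Nt5dc2 was at 11.94, 11.98 and 11.99 in Stab1KO and at 7.73, 7.87 and 7.61 in Stab2KO. The groups were far apart, by 4.24 log2 (SE 0.14, limma adjusted p = 9.9e-08), about 18.8-fold, with a 95% interval of 3.93 to 4.54. WT (7.43 ± 0.25, SD, n = 3) lay with Stab2KO and DKO (11.46 ± 0.21) with Stab1KO, so the level was high in both genotypes that lack Stab1. Nt5dc3 was the mirror of this at the other locus, at 5.67, 5.49 and 5.60 in Stab1KO and 8.29, 8.38 and 8.27 in Stab2KO. It was lower in Stab1KO by 2.73 log2 (SE 0.19, limma adjusted p = 0.00019), with WT at 5.59 ± 0.17 and DKO at 8.16 ± 0.47. The exact permutation p was again 0.1 for each gene. Nisch, which encodes the imidazoline-binding protein nischarin and lies on the other side of Stab1, differed by 0.38 log2 (SE 0.10, adjusted p = 0.42). On the other side of Stab2 the nearest measured gene was the placeholder model 1700113H08Rik, lower in Stab1KO by 0.84 log2 (SE 0.13, adjusted p = 0.042). In Stab1KO it was at 3.98, 3.88 and 4.05, below the array median. The effect of a knockout allele on its neighbours and the effect of losing the receptor cannot be told apart in these arrays.

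Away from the stabilin loci, Ass1 had the largest called difference towards Stab1KO. It encodes argininosuccinate synthase, which rebuilds arginine from citrulline in the urea cycle and for nitric oxide synthesis, and it lies on chromosome 2. Its level was 8.13, 7.88 and 8.47 in Stab1KO against 5.66, 5.56 and 5.10 in Stab2KO. That is 2.72 log2 higher in Stab1KO (SE 0.33, limma adjusted p = 0.0097), about 6.59-fold. WT was at 8.29, 8.58 and 7.05, and DKO at 5.33, 5.42 and 5.36, so the low level occurred in both genotypes that lack Stab2. Ass1 is also a hepatocyte enzyme. The mean of 18 hepatocyte genes was 7.52 to 8.85 in Stab1KO, 7.54 to 7.97 in Stab2KO and 7.47 to 8.55 in DKO. Between the single knockouts this list leaned the same way as Ass1, with a median of 0.51 and 17 of 18 genes higher in Stab1KO, and its part in the Ass1 difference was not tested. Without Stab1KO replicate 1 or 3, or Stab2KO replicate 2, the adjusted p was 0.063, 0.059 and 0.061. Ass1 was the only call among 20 measured genes of arginine and nitric oxide metabolism, whose median difference was 0.01. Arg1, the arginase that follows in the urea cycle, differed by 0.53 log2 (SE 0.17, adjusted p = 0.5).

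The 26 genes fell into patterns when WT and DKO were set beside them, assigning each of these means to the nearer single knockout. WT lay nearer to Stab1KO in 17 and nearer to Stab2KO in 9. In 8 genes WT lay nearer to Stab2KO and DKO nearer to Stab1KO: besides Stab1 and Nt5dc2 these were C2, Clca3a1, Morn4, Ptgfrn, Mfsd13a and Ltc4s. In 7 genes WT lay nearer to Stab1KO and DKO nearer to Stab2KO: Stab2, Nt5dc3, Ass1, Scd2, Cep83os, Tdg-ps2 and 1700113H08Rik. In 10 genes both WT and DKO lay nearer to Stab1KO: Msh5, Clic5, Lrmda, H2-T23, H2-Q7, Cnmd, Itgb3, Ciapin1, Ecm2 and Fbxo36. Rerg alone had both WT and DKO nearer to Stab2KO. This sorting is a description of means and no test, and some means lay between the single knockouts. Stab1KO did not pass against WT for Ltc4s (limma adjusted p = 0.43), Clca3a1 (limma adjusted p = 0.2) or Rerg (limma adjusted p = 0.27). Stab2KO did not pass against WT for Scd2 (limma adjusted p = 0.3) or Fbxo36 (limma adjusted p = 0.2). Against WT itself, 74 genes were called in Stab1KO (0.308%) and 71 in Stab2KO (0.296%), in contrasts that share the WT arrays.

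**Figure D2:**
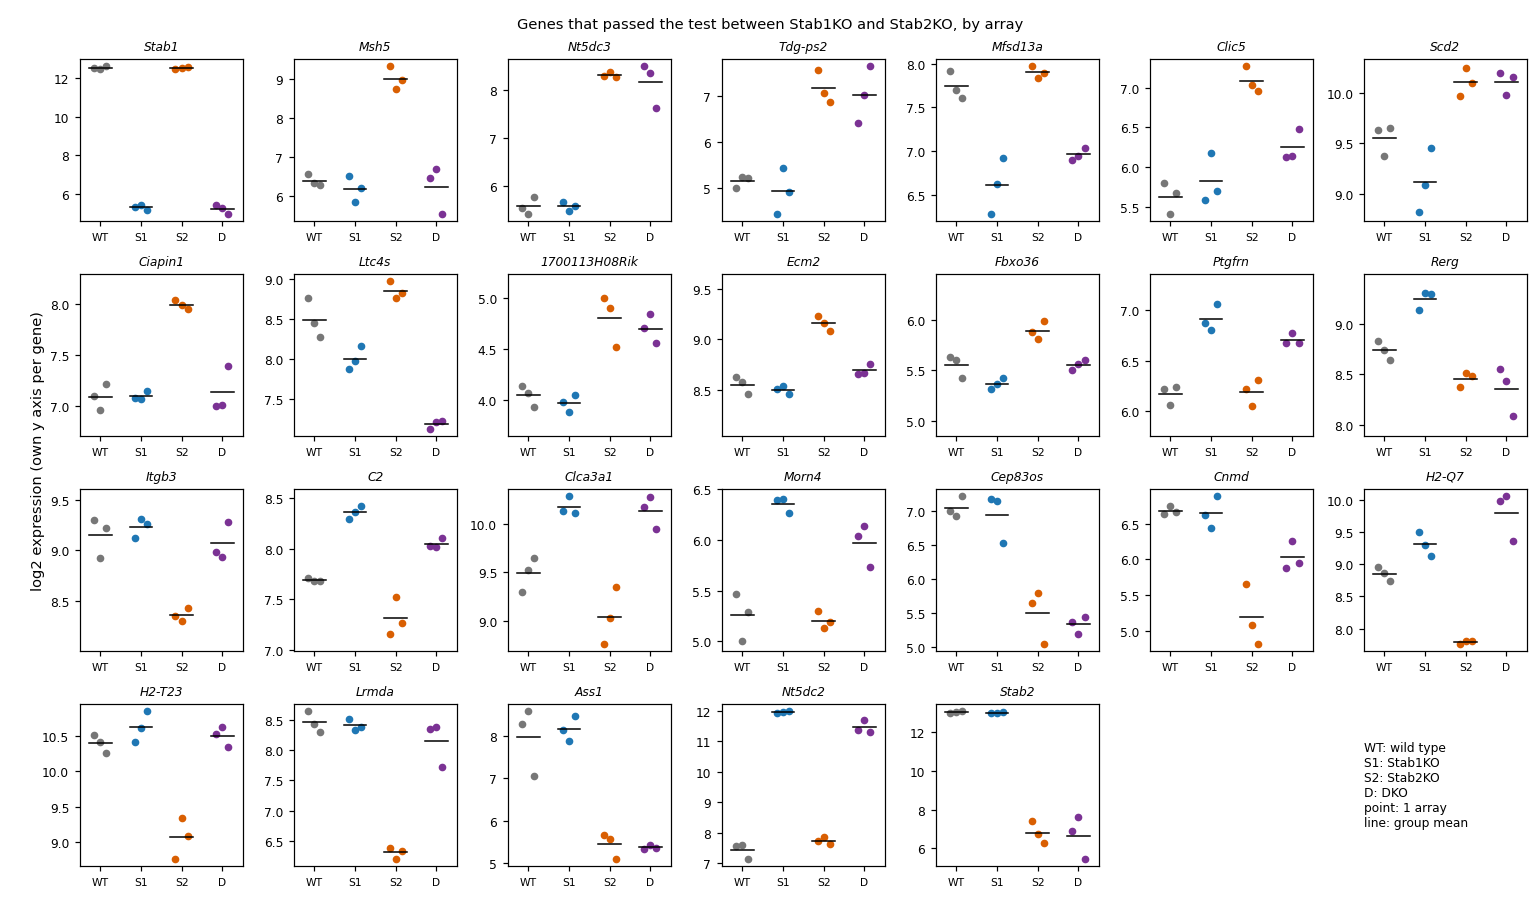
Log2 expression of the 26 genes past an adjusted p of 0.05, ordered from the most negative to the most positive difference, 1 point an array and a line at each group mean (WT, Stab1KO as S1, Stab2KO as S2, DKO as D). Each panel has its own vertical axis. In every panel the 3 Stab1KO points lie wholly above or below the 3 Stab2KO points.

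Among the genes in which DKO lay nearer to Stab1KO and WT nearer to Stab2KO, C2 encodes a serine protease precursor of the classical and lectin complement pathways. It was at 8.29, 8.37 and 8.42 in Stab1KO and at 7.16, 7.52 and 7.26 in Stab2KO, a difference of 1.04 log2 (SE 0.09, limma adjusted p = 0.00088). WT (7.69 ± 0.02) and DKO (8.05 ± 0.04) fell between the single knockouts. Cfb, the gene of factor B next to C2 in the complement gene cluster, differed by 0.72 log2 (SE 0.14, adjusted p = 0.12). C2 was the only call among 26 complement and coagulation genes, whose median difference was 0.08.

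Clca3a1, which encodes a secreted chloride channel accessory protein, was at 10.13, 10.29 and 10.11 against 8.76, 9.02 and 9.34, higher in Stab1KO by 1.14 log2 (SE 0.15, adjusted p = 0.019). Ptgfrn, a tetraspanin-associated membrane protein of the immunoglobulin superfamily, was higher by 0.72 log2 (SE 0.10, adjusted p = 0.019). Ltc4s, the enzyme that conjugates leukotriene A4 with glutathione to make leukotriene C4, was lower by 0.84 log2 (SE 0.12, adjusted p = 0.033), at 7.88, 7.98 and 8.16 against 8.97, 8.76 and 8.82. Its DKO mean of 7.20 ± 0.05 was lower again than either single knockout.

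The genes in which WT and DKO both lay nearer to Stab1KO included an adhesion receptor, a matrix protein and an iron-sulfur cluster protein. Itgb3, integrin beta 3, a receptor for vitronectin and fibrinogen, was at 9.12, 9.30 and 9.26 in Stab1KO against 8.35, 8.31 and 8.43 in Stab2KO, a difference of 0.87 log2 (SE 0.12, adjusted p = 0.021). WT was at 9.15 ± 0.20 and DKO at 9.07 ± 0.19. Cnmd, chondromodulin, an anti-angiogenic glycoprotein first known from cartilage, was at 6.62, 6.44 and 6.89 against 5.66, 5.08 and 4.82, higher in Stab1KO by 1.46 log2 (SE 0.19, adjusted p = 0.019). Ciapin1, a cytosolic iron-sulfur cluster protein, was at 7.08, 7.07 and 7.14 against 8.04, 7.995 and 7.96, lower in Stab1KO by 0.90 log2 (SE 0.11, adjusted p = 0.0097). Ecm2, a matrix protein, was lower by 0.65 log2 (SE 0.07, adjusted p = 0.0054). Clic5, a chloride intracellular channel protein that links membrane to the actin cortex, was lower by 1.27 log2 (SE 0.17, adjusted p = 0.019), at 5.59, 6.18 and 5.70 against 7.27, 7.03 and 6.96. Fbxo36, an F-box protein, had the smallest of the called differences, -0.52 log2 (SE 0.08, adjusted p = 0.044). Rerg, a small GTPase of the Ras family and the gene with WT and DKO both nearer to Stab2KO, was higher by 0.78 log2 (SE 0.12, adjusted p = 0.036), at 9.13, 9.30 and 9.29 against 8.37, 8.51 and 8.48.

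Several called genes lay close to each other. Chromosomes 10, 14, 17 and 19 each held more than 3 times the share of calls over all genes: 5 of 1107 genes on chromosome 10 (0.452%), 4 of 960 on chromosome 14 (0.417%), 5 of 1133 on chromosome 17 (0.441%) and 3 of 761 on chromosome 19 (0.394%). These counts include the targets, Stab2 on chromosome 10 and Stab1 on chromosome 14, whose calls follow from the knockouts. Within 20 Mb of the targeted genes, the targets themselves left out, 2 of 335 genes around Stab1 were called (0.597%) and 3 of 437 around Stab2 (0.686%). At an unadjusted p of 0.05, 7.16% and 9.38% of these genes passed, against 7.07% of all. Within 5 Mb those shares were 11.3% and 14.6%.

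Around Stab1, besides Nt5dc2, the called gene was Lrmda, a leucine-rich melanocyte differentiation gene 8.08 Mb away. It was at 8.51, 8.33 and 8.39 in Stab1KO and 6.38, 6.21 and 6.34 in Stab2KO, a difference of 2.10 log2 (SE 0.16, limma adjusted p = 0.00033). WT (8.46 ± 0.17) and DKO (8.15 ± 0.37) were high too, so the low level was in Stab2KO, whose targeted gene is on another chromosome. Cnmd also lies on chromosome 14, at 48.5 Mb from Stab1. Around Stab2 the calls were Nt5dc3, 1700113H08Rik and Cep83os, an opposite-strand transcript of the centrosomal gene Cep83, at 7.67 Mb, whose signal is uncertain where the genes overlap. Cep83os was at 7.18, 7.15 and 6.53 in Stab1KO against 5.65, 5.79 and 5.05 in Stab2KO, higher by 1.46 log2 (SE 0.21, adjusted p = 0.033). On the same chromosome, 44.8 Mb away, Tdg-ps2, a processed copy of the DNA glycosylase gene Tdg, was lower in Stab1KO by 2.24 log2 (SE 0.32, adjusted p = 0.03). It may share probes with Tdg and is uncertain for that reason.

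All 5 calls on chromosome 17 fell in a stretch of 9.42 Mb that runs from C2 to Clic5 and includes part of the major histocompatibility complex. In it 5 of 205 genes were called (2.44%), 13.7% passed an unadjusted p of 0.05, and the arrays did not overlap in 21.5%. Over all genes these shares were 0.108%, 7.07% and 12.6%. The ends of the stretch were set at its outermost called genes, which raises its share of calls, so that share is only a description. Besides C2 and Clic5 they were Msh5, H2-T23 and H2-Q7. Msh5, which encodes a MutS homologue needed for meiotic crossing over, was at 6.52, 5.83 and 6.19 in Stab1KO and 9.34, 8.75 and 8.97 in Stab2KO, lower by 2.84 log2 (SE 0.28, limma adjusted p = 0.0027). WT (6.39 ± 0.16) and DKO (6.22 ± 0.60) were at the Stab1KO level.

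Class I genes of this stretch differed in both directions, with calls in 1 of them. H2-T23, the mouse Qa-1 molecule that presents leader peptides to natural killer cells, was at 10.41, 10.61 and 10.85 in Stab1KO against 8.77, 9.35 and 9.09 in Stab2KO, higher by 1.55 log2 (SE 0.16, adjusted p = 0.0028). H2-Q7, a Qa-2 gene, was at 9.50, 9.30 and 9.12 against 7.77, 7.81 and 7.81, higher by 1.51 log2 (SE 0.17, adjusted p = 0.0054). H2-T22, a ligand of some gamma-delta T cells, had a difference of 4.27 log2 (SE 0.71) but an adjusted p of 0.068. Its Stab1KO arrays were at 10.05, 9.97 and 9.83 and its Stab2KO arrays at 3.60, 7.50 and 5.95, which do not overlap but spread widely within Stab2KO. Without Stab2KO replicate 1 the adjusted p was 0.013, and without replicate 2 it was 0.0066. H2-T10, its near-identical neighbour, pointed the other way, at -1.15 log2 (SE 0.22, adjusted p = 0.13). These genes have close copies that can share probes, so their values are uncertain. The list of 19 class I and antigen presentation genes had 2 calls, both higher in Stab1KO, and a median of 0.07.

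Pla2g7 lies in the same stretch. It encodes the secreted phospholipase that hydrolyses platelet-activating factor and oxidised phospholipids. It was at 7.34, 7.93 and 8.01 in Stab1KO and at 11.04, 11.01 and 10.95 in Stab2KO, without overlap. The difference of -3.24 log2 (SE 0.55) had an adjusted p of 0.076, because DKO varied widely (8.44 ± 1.49, SD, n = 3) and the model pools the spread of all groups. Without DKO replicate 3 the adjusted p was 9.1e-06, and with only the 6 compared arrays it was 0.001. WT was at 7.46, with Stab1KO.

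The 3 calls on chromosome 19 lay within 4.3 Mb, where 3 of 81 genes were called (3.7%) and 14.8% passed an unadjusted p of 0.05. Over all genes these shares were 0.108% and 7.07%. The ends of this stretch too were set at its outermost called genes, so its share of calls is only a description. Morn4, a protein of membrane-occupation repeats, was at 6.40, 6.40 and 6.26 in Stab1KO against 5.29, 5.13 and 5.19 in Stab2KO, higher by 1.15 log2 (SE 0.13, limma adjusted p = 0.0064). Mfsd13a, a membrane protein of the major facilitator superfamily, was at 6.28, 6.62 and 6.92 against 7.97, 7.83 and 7.90, lower by 1.29 log2 (SE 0.14, adjusted p = 0.0054). Scd2, a stearoyl-CoA desaturase that makes monounsaturated fatty acids, was lower by 0.98 log2 (SE 0.15, adjusted p = 0.043), at 8.83, 9.09 and 9.45 against 9.97, 10.24 and 10.10. Sfxn2, close by, differed by -0.79 log2 (SE 0.13, adjusted p = 0.064), just outside the threshold. A stretch of chromosome inherited with a line and the loss of a receptor cannot be told apart here.

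**Figure D3:**
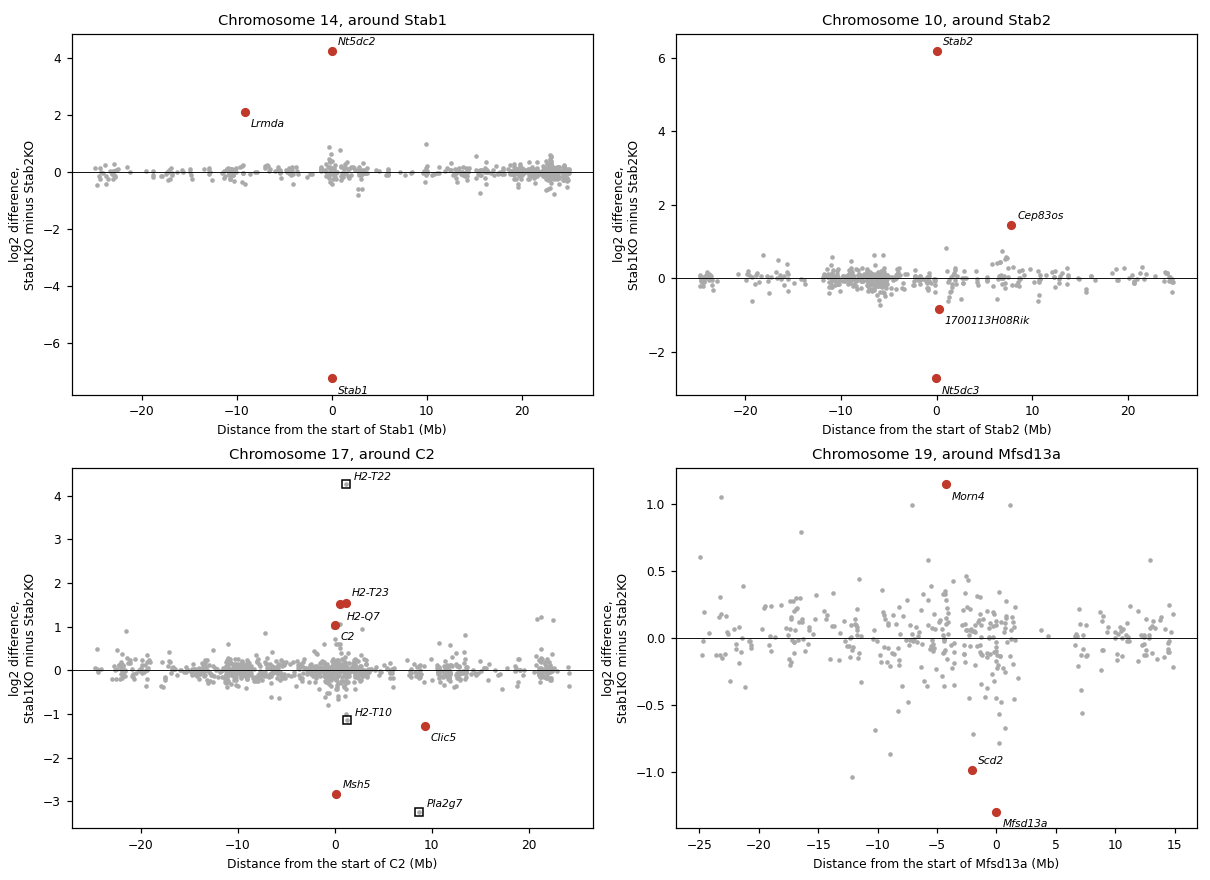
The log2 difference (Stab1KO minus Stab2KO, vertical axis) of each measured gene against its distance in Mb from the start of Stab1, Stab2, C2 and Mfsd13a (horizontal axes), 1 point a gene. Red points passed an adjusted p of 0.05 and open squares mark Pla2g7, H2-T22 and H2-T10, which did not. In the panels of Stab1, Stab2 and C2 most neighbours of the called genes lie near 0. Genes not called can lie as far out as called ones, such as the open squares around C2. Around Mfsd13a some genes not called lie as far out as Scd2. Vertical axes differ between panels.

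The threshold ran through a close series of genes. The highest adjusted p among called genes was 0.0443 and the lowest beyond it was 0.0578, and 19 genes lay between 0.05 and 0.1. Ccr7, the chemokine receptor that guides lymphocytes and dendritic cells to lymph nodes, was at 6.23, 6.07 and 6.34 in Stab1KO and 7.18, 7.63 and 7.49 in Stab2KO, with a difference of -1.22 log2 (SE 0.19, adjusted p = 0.058). Gna14, a G protein alpha subunit, differed by -0.87 log2 (SE 0.14, adjusted p = 0.064). Gpx3, the secreted glutathione peroxidase, differed by 0.86 log2 (SE 0.14, adjusted p = 0.067), and Ntn4, a netrin of basement membranes, by 0.75 log2 (SE 0.13, adjusted p = 0.08). Hamp, the hepatocyte hormone hepcidin that limits iron export, was at 5.59, 4.40 and 5.08 in Stab1KO against 7.08, 7.15 and 8.86 in Stab2KO. Its difference was -2.67 log2 (SE 0.46, adjusted p = 0.082), opposite in sign to 17 of 18 genes in the hepatocyte list, to which Hamp does not belong. Ifi208, a DNA sensor family gene induced by interferon, was at 7.27, 6.75 and 6.24 against 5.99, 3.39 and 3.33, a difference of 2.52 log2 (SE 0.59, adjusted p = 0.29).

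Marker lists of other cells leaned to one side or the other, with no gene called. Such signal can come from more cells of a type or from more RNA in each, which bulk arrays cannot tell apart. Among 16 measured Kupffer cell and macrophage genes, 16 were higher in Stab1KO, with a median of 1.00 against -0.0007 over all genes, and 0 were called. No member had its mean below the array median in all 4 groups. Of these 16, 8 passed an unadjusted p of 0.05, and the arrays did not overlap in 12. Over all genes, 3% passed in that direction, and the arrays did not overlap in that direction in 6.04%. The members of a marker list are not independent of each other. The list's mean per array was 8.41 to 9.33 in Stab1KO and 7.49 to 7.89 in Stab2KO, with WT between 7.87 and 9.79. Vsig4, a complement receptor of resident liver macrophages, was at 8.62, 8.56 and 9.54 against 6.73, 7.43 and 6.97, a difference of 1.86 log2 (SE 0.59, adjusted p = 0.51). Cd5l, a secreted macrophage protein, differed by 1.52 log2 (SE 0.58, adjusted p = 0.61). The WT range covered all Stab1KO arrays and 2 of the 3 Stab2KO arrays.

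Hepatic stellate cell genes pointed the other way. These cells store vitamin A and lie under the endothelium. Of 26 measured genes, 23 were lower in Stab1KO than in Stab2KO, with a median of -0.47, 0 were called, and 12 passed an unadjusted p of 0.05 in that direction against 1 in the other. Over all genes, 4.07% passed as lower and 3% as higher. The list mean was 6.30 to 6.55 in Stab1KO, 6.82 to 6.90 in Stab2KO, 7.85 to 8.34 in WT and 6.27 to 6.56 in DKO. Both single knockouts lay below WT without overlap, and Stab1KO lay lower than Stab2KO, over the range of DKO. Lrat, which esterifies retinol for storage, was at 6.68, 6.42 and 6.18 in Stab1KO and 7.60, 7.54 and 7.02 in Stab2KO, a difference of -0.96 log2 (SE 0.26, adjusted p = 0.42), with WT at 9.44. Bmp5, a bone morphogenetic protein, differed by -0.80 log2 (SE 0.23, adjusted p = 0.46), and Colec11, a soluble collectin, by -0.67 log2 (SE 0.17, adjusted p = 0.34). All 3 genes fell against WT in both lines: Lrat differed by -3.01 log2 in Stab1KO (adjusted p = 0.00057) and by -2.05 log2 in Stab2KO (adjusted p = 0.009), from contrasts that share the WT arrays.

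Genes of dividing cells and lymphocytes leaned towards Stab2KO, again with no call. Of 21 cell cycle genes, 20 were lower, with a median of -0.51, and 8 passed an unadjusted p of 0.05. Over all genes, 4.07% passed as lower in Stab1KO and 3% as higher. Top2a, the topoisomerase of dividing cells, was at 6.30, 6.27 and 6.46 against 7.64, 7.36 and 6.94, a difference of -0.98 log2 (SE 0.35, adjusted p = 0.59). Of 12 B cell and plasma cell genes, 10 were lower, with a median of -0.52, and 6 passed an unadjusted p of 0.05. Cd79a, a part of the B cell receptor, differed by -0.95 log2 (SE 0.26, adjusted p = 0.43). Of 19 T and natural killer cell genes, 14 were lower, with a median of -0.38, and 3 passed in that direction against 2 in the other. The 18 hepatocyte genes had a median of 0.51, with 17 higher in Stab1KO, and 3 passed an unadjusted p of 0.05. In Stab1KO, replicate 2 had a list mean of 7.52 and the other arrays 8.68 and 8.85. Of 14 smooth muscle and contractile genes, 14 were lower, with a median of -0.30, and 2 passed an unadjusted p of 0.05. All 8 bile duct genes were lower, with a median of -0.15. Of 15 neutrophil genes, 12 were higher, with a median of 0.47. In these last 2 lists 0 genes passed an unadjusted p of 0.05. The part of these cells in the 26 calls was not tested.

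**Figure D4:**
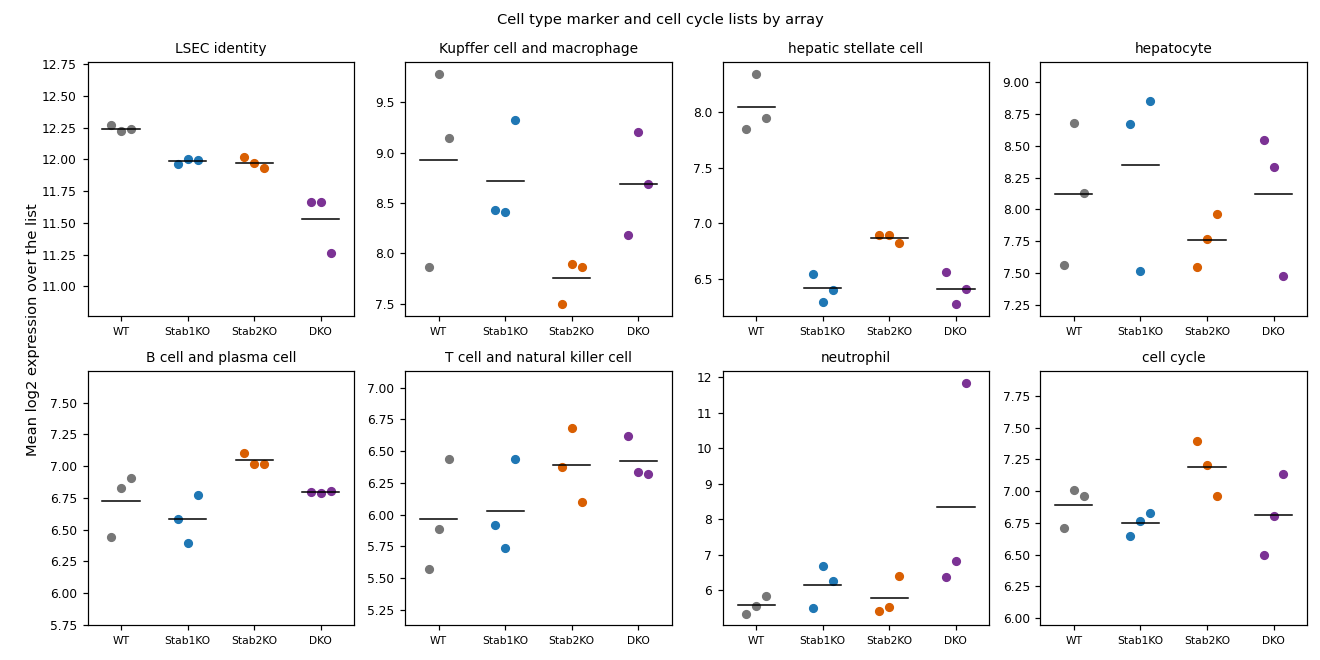
Mean log2 expression over gene lists, 1 point an array and a line at each group mean, for WT, Stab1KO, Stab2KO and DKO. The lists are the LSEC, macrophage, stellate cell, hepatocyte, B cell, T and natural killer cell and neutrophil markers and the cell cycle genes. The other marker lists are not drawn. Vertical axes differ between panels. Stab1KO lies above Stab2KO in the macrophage panel and below it in the stellate, B cell and cell cycle panels, and 1 DKO array has a neutrophil mean of 11.84.

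The 37 lists, 11 of cell type markers and 26 of functions, held 678 measured genes, of which 8 were called (1.18%, against 0.108% of all genes), in 5 lists. These 8 were Stab1, Stab2, Nt5dc2, Nt5dc3, Ass1, C2, H2-T23 and H2-Q7, and the lists were chosen with earlier results known, so this share is a description. Among 27 other scavenger and endocytic receptors 0 were called (limma), 4 passed an unadjusted p of 0.05, and the median was 0.12, with 24 members above 0. Over all genes 7.07% passed at that level. Cd5l and Cd163, which are also in the macrophage list, are among those 4 receptors. Among 26 lysosomal genes and 27 genes of clathrin coats and endosomes 0 were called in each, with medians of 0.04 and -0.02. At an unadjusted p of 0.05, 4 and 0 of them passed. Lyve1, the lymphatic and sinusoidal hyaluronan receptor, differed by 0.14 log2 (SE 0.11), with a 95% interval of -0.11 to 0.39. Clec4g, a C-type lectin of LSECs, differed by 0.07 log2, with an interval of -0.10 to 0.23.

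Of 9 measured genes for known protein ligands of the stabilins, 0 were called, 1 passed an unadjusted p of 0.05, and the median was -0.08. At that level 7.07% of all genes passed. The BMP and TGF-beta list, 33 genes, had 0 calls, 4 at an unadjusted p of 0.05 and a median of -0.05. Bmp5 and Bmp10, which are also in the stellate cell list, are among those 4. Bmp10 differed by -0.68 log2 (SE 0.20, adjusted p = 0.48), after falling from WT in both lines. In the list of VEGF, Notch and angiopoietin genes, with a median of 0.03, 0 of 28 were called and 5 passed an unadjusted p of 0.05. The 2 calls among 21 purinergic genes were Nt5dc2 and Nt5dc3 themselves, listed there for their nucleotidase domain. Entpd1, the ectonucleotidase CD39 that degrades extracellular ATP, was at 11.51, 11.69 and 11.42 against 11.24, 11.06 and 10.59, a difference of 0.58 log2 (SE 0.20, adjusted p = 0.56). It passed against WT in Stab1KO (1.32 log2, adjusted p = 0.016) and not in Stab2KO (0.74 log2, adjusted p = 0.29). The difference between the lines themselves is the 0.58 log2 above.

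**Figure D5:**
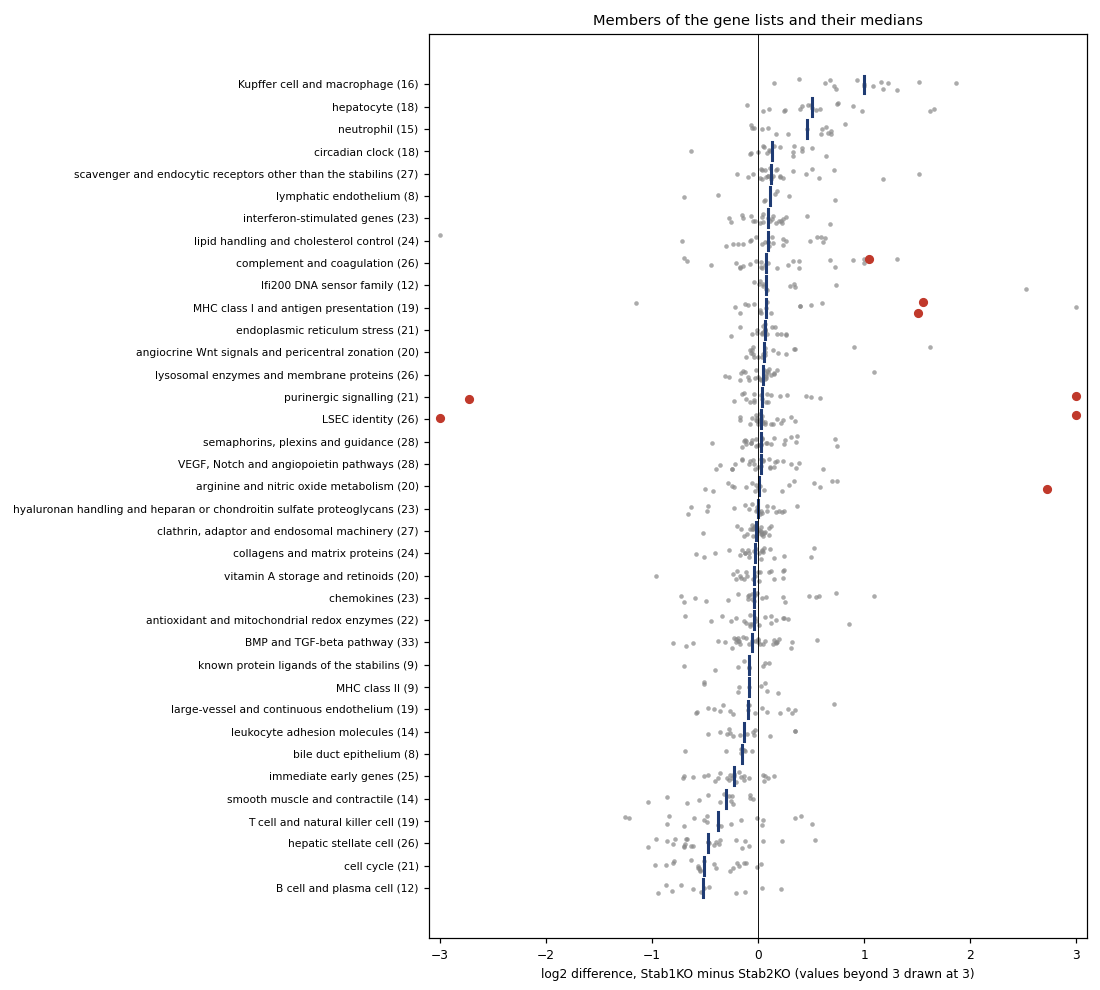
The log2 difference (Stab1KO minus Stab2KO, horizontal axis) of each measured member of the 37 gene lists, with the number measured in parentheses and a blue bar at each list's median. Red points passed an adjusted p of 0.05, and values beyond 3 are drawn at 3. The macrophage list has the highest median, 1.00, and the B cell and cell cycle lists the lowest, -0.52 and -0.51.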

How the data were processed

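RNA was hybridised to Affymetrix arrays. The deposited table holds a log2 value for each gene identifier on each array. RMA (background correction, quantile normalization, probe summary) is named in the submitters' processing notes. Its version and the genome build were not given in the sources used here. Of 24973 rows, 24015 had 1 symbol in the platform annotation. Where rows shared a symbol the brightest was kept, leaving 24011 genes. RefSeq (GRCm38.p6) served to show which genes are neighbours, with distances between gene edges.

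limma 3.58.1 (R 4.3.3) fitted 4 group means over 12 arrays, without trend or robust options. Adjusted p-values are limma's, by Benjamini-Hochberg over all genes, two-sided. The fit was tested on simulated data. Gene names followed a rule: the targets and their neighbours, the 15 largest called differences each way, called genes of lists and of chromosomes with over 3 times the share of calls, and the largest 2 of lists without calls. Arg1, Ccr7, Cfb, Clec4g, Colec11, Entpd1, Gna14, H2-T10, H2-T22, Hamp, Lyve1 and Sfxn2 were chosen after their values were seen. Members and lists were chosen with earlier results of these data known. No detection calls were used, so no gene is called absent. Precision is limited by having 3 pools in each group.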

Additional observations from a re-analysis of the deposited data

How the results depend on the processing

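No called gene changed direction under the alternatives run, while list medians near 0, such as that of MHC class II genes, took either sign. The 26 calls became 41 with array weights (23 lower in Stab1KO), 15 with only the 6 compared arrays (9 higher and 6 lower) and 4 with a minimum log2 difference of 1 (2 higher and 2 lower: Stab2, Nt5dc2, Stab1 and Nt5dc3). Further quantile normalization and every row tested each kept the 26. The low-signal filter also called 26, of which 24 were shared, without 1700113H08Rik and Fbxo36 and with 2 others. The trend and robust options gave 29, and 9 arrays without DKO gave 30. Leaving out each array in turn gave 12 to 43 calls, 6 to 24 of them higher and 5 to 19 lower in Stab1KO. Within 20 Mb of the targets, themselves counted, 7 calls became 4 with the minimum difference and 5 to 11 with an array left out. Outside these windows, 19 calls became 32 with array weights, 0 with the minimum difference, 10 with the 6 compared arrays and 7 to 32 with an array left out. Leaving out the stretches of chromosomes 17 and 19, chosen after seeing the data, left 11. Where arrays were dropped, fewer samples were tested, and for array weights the cause was not tested.

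Whether the replicate numbers pair the pools was not settled. Deviations of equal numbers correlated at 0.0631, 0.0854 and 0.291, and those of unequal numbers at -0.274 to 0.213. Stab1KO replicate 2 correlated best with Stab2KO replicate 1 (0.213). With a replicate block, 18 genes were called, 12 higher and 6 lower in Stab1KO, and 17 of them were among the 26. Of 777 alternative values of the list medians, 17 moved by more than the spread between arrays. With 3 pools a group, differences well under 1 log2 can be missed, and so can larger ones where arrays vary. H2-T22 at 4.27 log2 and Pla2g7 at -3.24 log2 were not called.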
